A study of Homo sapiens with 16 samples.

Results

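Topoisomerases are the enzymes that cut and rejoin DNA to relieve twisting and to separate linked molecules. Type I enzymes (TOP1, its mitochondrial relative TOP1MT, and TOP3A and TOP3B) cut a single strand, and type II enzymes (TOP2A and TOP2B) cut both strands and pass another duplex through the gap. During the cut the enzyme is bonded to DNA through a tyrosine, and a drug that holds it there turns it into a DNA lesion. Doxorubicin, an anthracycline chemotherapy drug, acts on TOP2A and TOP2B in this way. The tyrosyl-DNA phosphodiesterases TDP1 and TDP2 remove trapped topoisomerases, TDP1 mainly TOP1 and TDP2 mainly TOP2. TOP2A is known as the isoform of dividing cells, and TOP2B as the isoform that is also present in cells that no longer divide, neurons among them.

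These 8 genes, 6 topoisomerases and both phosphodiesterases, were chosen by symbol, and all 8 were found among the 26410 genes of the deposited tables. Their transcripts were measured by poly(A) RNA sequencing in SH-SY5Y cells, a human neuroblastoma cell line. The cells were 2 clones labelled TRPM2 KO (KO11 and KO28), made with a Cas9 guide against the calcium channel gene TRPM2, and 2 control clones (Scr13 and Scr16) made with a scrambled guide. All 4 clones also received a donor vector carrying GFP and puromycin resistance, were selected in puromycin and were grown from single cells, so each clone is 1 editing event. Each clone was sequenced in 2 replicates without treatment and 2 after 24 h in doxorubicin, which gave 4 groups of 4 libraries: Scr untreated, KO untreated, Scr doxorubicin and KO doxorubicin. The sample labels and the study's paper give 0.3 µM doxorubicin for this sequencing, whereas the design text of the data set gives 3 µM. The question of the study was how cells without TRPM2 differ from control cells, and how both respond to doxorubicin.

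The values are normalized CPM, that is, the reads on a gene scaled to a common library size. The libraries held between 10481177 and 25086085 reads on genes (median 16037366.5), and replicate 1 of Scr16 after doxorubicin was the shallowest. A gene with 0 reads could still have held up to 3, a floor between 0.118 and 0.285 CPM depending on the library that covers counting error only. The members lay far above it, from 317 reads for TDP2 in its lowest library to 18322 for TOP2A in its highest. Replicates were not copies of each other, since each pair of the same clone and treatment had a chi-square per gene between 7.79 and 16.9. Both members of a pair share the clone, so p-values measure the spread between these libraries and not between independent knockouts.

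The reads on TRPM2, the gene named in the labels, are given first. Without treatment, it had 1.93 and 2.23 CPM in KO11 and 1.41 and 2.19 in KO28, but 0.118 and 0.115 in Scr13 and 0 reads in both libraries of Scr16. The mean of the untreated libraries labelled TRPM2 KO was thus at least 10.5-fold higher than the Scr level, taken at the largest floor of the untreated Scr libraries. After doxorubicin, TRPM2 stood at 1.22 and 1.83 CPM in KO11, 1.37 and 0.658 in KO28, 0.0594 and 0.0631 in Scr13, and 1.33 and 0.390 in Scr16, and the groups overlapped. These reads are counted over the whole gene, which TRPM2-AS overlaps on the opposite strand, and their place in it is not known. By the study's methods, the edit removes the DNA for the start of the protein and shifts the reading frame of the rest, and the clones were checked by RT-PCR and Western blotting, and the deleted stretch was not measured on its own here. Counts over the whole gene thus cannot decide whether a library carries the edit. Every direction below is therefore one between libraries labelled TRPM2 KO, called KO-labelled from here on, and libraries labelled Scr.

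The cells carried the markers of their label. Of 12 neuroblastoma markers, 11 had a mean of at least 1 CPM, led by STMN2 at 1629 CPM, and TH was the exception at 0.328 CPM. Leukocyte and epithelial markers were near 0: the 3 leukocyte markers present in the tables summed to at most 1.78 CPM in any library, and the 5 epithelial ones to at most 5.95 CPM, with LYZ and KRT8 at or under the floor throughout. Fibroblast markers were present, and their sum was higher in libraries labelled TRPM2 KO, largely through COL3A1. All 8 had a mean of at least 1 CPM, and 0 of them were at the floor in every library, but their levels were uneven. COL3A1 was the most abundant with a mean of 114 CPM over the 16 libraries, followed by THY1 at 95.4 and PDGFRB at 74.9. The others were low, with PDGFRA at 13.7, COL1A1 at 9.70, LUM at 6.25, DCN at 2.63 and COL1A2 at 1.07 CPM. After doxorubicin their summed level was 423, 344, 446 and 383 CPM in the KO-labelled libraries (KO11, then KO28), against 176, 175, 237 and 199.9 CPM in Scr13 and Scr16. Without treatment it was 427, 343, 467 and 440.5 CPM in KO11 and KO28, and 355, 190.1, 246 and 225 CPM in Scr13 and Scr16, where the first library of Scr13 overlapped the KO range. COL3A1 alone had 214, 154, 215 and 174 CPM after doxorubicin in KO11 and KO28, against 29.6, 6.88, 83.9 and 19.8 CPM in Scr13 and Scr16. Without treatment it had 194, 126, 215 and 165 CPM in KO11 and KO28, against 139, 10.8, 41.1 and 30.3 CPM in Scr13 and Scr16. The part of these genes in the results below was not tested.

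Per length of merged exons, the members spanned a wide range, with TOP2A far in front. TOP2A, TOP2B and TOP1 were followed by TOP3A, then by TDP2, TDP1, TOP3B and TOP1MT. In the untreated Scr libraries, the level was 121 ± 12.8 CPM per kilobase (SD, n = 4) for TOP2A, 65.9 ± 5.64 for TOP2B and 42.8 ± 3.03 for TOP1. TOP3A stood at 16.8 ± 0.780 CPM per kilobase, TDP2 at 10.9 ± 0.454, TDP1 at 5.94 ± 0.273, TOP3B at 4.57 ± 0.500 and TOP1MT at 3.89 ± 0.355 (SD, n = 4). The order of the means was the same in all 4 groups. Neighbours in that order did not overlap, with the exception of TOP3B and TOP1MT, which overlapped in every group, and of TDP1 and TOP3B, which overlapped in KO doxorubicin. TOP2A ranked above 99.6% of the genes with reads by mean CPM, and TOP1MT above 72.5%.

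**Figure D1:**
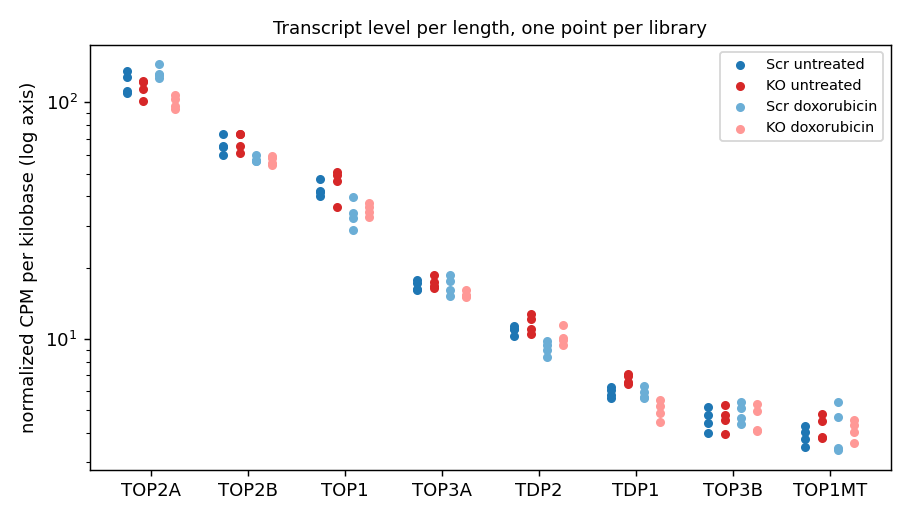
Level of each member in normalized CPM per kilobase of merged exons (log axis), with 1 point per library and the 4 groups side by side in each column. TOP2A is the highest in each of the 16 libraries, and TOP3B and TOP1MT share the lowest range.

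TOP2A (ENSG00000131747; GRCh38 chromosome 17, 40388516 to 40417950, minus strand) was the only member called between genotypes after doxorubicin. After doxorubicin, TOP2A had 605 and 663 CPM in KO11 and 691 and 621 in KO28. The Scr libraries after doxorubicin had 849 and 812 CPM in Scr13 and 839 and 935 in Scr16. The highest KO-labelled library therefore lay below the lowest Scr library. Means were 645 ± 39.3 and 859 ± 53.1 CPM (SD, n = 4), which is 0.751-fold (95% interval 0.674 to 0.837) or -0.41 on the log2 scale (standard error 0.075, limma adjusted p = 0.000816). An exact permutation test had p = 0.0286, and 4 libraries against 4 cannot go lower. TOP2A passed the threshold in all 22 alternatives tried, each clone left out included (log2 fold change between -0.46 and -0.37).

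Without treatment, TOP2A did not separate the genotypes. It had 791 and 784 CPM in KO11, 735 and 655 in KO28, 721 and 828 in Scr13 and 872 and 702 in Scr16. The groups overlapped widely, with means of 741 ± 62.9 and 781 ± 82.3 CPM (SD, n = 4) and a log2 difference of -0.073 (95% interval -0.24 to 0.094, limma adjusted p = 0.782). In Scr clones, the log2 change with doxorubicin was 0.14 (standard error 0.078, limma adjusted p = 0.257), and in KO-labelled clones it was -0.20 (standard error 0.078, limma adjusted p = 0.0782). Neither passed the threshold, although the second did with the library size alone, with DESeq2, and without replicate 2 of untreated or replicate 1 of treated KO28. Without clone KO11 the second was -0.083 (limma adjusted p = 0.736). With 1 library left out, the change in Scr ran from 0.072 to 0.20. The difference between these responses was -0.34 (standard error 0.11) with an unadjusted p of 0.00444 from limma and an adjusted p of 0.335, so it was not past the threshold over all genes. Over its alternatives this adjusted p ran from 0.104 to 0.823 (limma, edgeR and DESeq2).

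TOP2A transcription is known to follow the cell cycle through CCAAT boxes, bound by NF-Y, and a cell cycle homology region (letters TTTGAA or TTCGAA), used by many genes of the G2 and M phases. The promoter is shown because TOP2A was the only member called between genotypes. It is given 5′ to 3′ from RefSeq (GRCh38.p14), from 250 bases before to 50 after the start, with capitals on every match on either strand to CCAAT, to TTTGAA or TTCGAA, to the E2F motif TTTCGCGC or its other form TTTGGCGC, and to the GC box GGGCGG. Matches may overlap.
TOP2A, chr17:40417847-40418146, minus strand: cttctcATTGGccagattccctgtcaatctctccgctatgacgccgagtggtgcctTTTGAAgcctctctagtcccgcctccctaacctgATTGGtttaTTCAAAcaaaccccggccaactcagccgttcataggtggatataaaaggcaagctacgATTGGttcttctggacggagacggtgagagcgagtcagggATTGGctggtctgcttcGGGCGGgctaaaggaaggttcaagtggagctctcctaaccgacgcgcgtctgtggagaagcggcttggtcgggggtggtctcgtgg
It held 4 matches to CCAAT, all on the opposite strand as ATTGG, the first base of which lay 244, 160, 93 and 53 bases before the start. It also held TTTGAA at 194 bases and its reverse complement TTCAAA at 151 bases before the start, and GGGCGG at 36 bases. Of the 35116 human promoters of this length, 34.6% held CCAAT and 0.991% at least 4 copies of it, 15.2% held TTTGAA and 1.45% TTCGAA. The share was 0.515% for TTTCGCGC, 0.652% for TTTGGCGC and 45.0% for GGGCGG. A match to these letters is a description and not a site of binding.

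TOP2B (ENSG00000077097; chromosome 3, 25597905 to 25664907, minus strand, with RARB overlapping on the opposite strand) was called lower with doxorubicin in KO-labelled libraries and was not called between genotypes. Untreated, it had 395 and 389.7 CPM in Scr13, 445 and 363 in Scr16, 445 and 446 in KO11 and 396 and 369 in KO28. After doxorubicin it had 341 and 345 CPM in Scr13, 360.3 and 341 in Scr16, 350.2 and 334 in KO11 and 358 and 327 in KO28. Every treated library was below every untreated library of its genotype. In the KO-labelled libraries, TOP2B fell from 414 ± 37.9 to 342 ± 14.3 CPM (SD, n = 4), or by a log2 change of -0.27 (standard error 0.070, limma adjusted p = 0.00620; exact permutation p = 0.0286). Without clone KO11 that change was -0.16 and the call was lost (limma adjusted p = 0.397). In Scr it went from 398 ± 34.1 to 347 ± 9.14 CPM, a log2 change of -0.20 (standard error 0.070, limma adjusted p = 0.0631) that did not pass the threshold, but did with the library size alone, with DESeq2 and without replicate 2 of untreated Scr16. Between genotypes, the log2 difference was 0.055 without treatment (95% interval -0.11 to 0.22) and -0.020 after doxorubicin (95% interval -0.16 to 0.12).

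RefSeq lists 2 starts for TOP2B. The promoter of the start at the end of the annotated gene is shown beside that of its paralog, with the same marking.
TOP2B, chr3:25664858-25665157, minus strand: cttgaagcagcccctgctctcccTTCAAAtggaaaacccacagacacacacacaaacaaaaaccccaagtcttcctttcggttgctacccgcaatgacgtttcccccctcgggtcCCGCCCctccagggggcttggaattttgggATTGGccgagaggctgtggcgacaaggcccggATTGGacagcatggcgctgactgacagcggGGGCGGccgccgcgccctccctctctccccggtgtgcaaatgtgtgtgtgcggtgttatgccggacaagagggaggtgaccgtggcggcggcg
It held CCAAT as ATTGG at 105 and 73 bases before the start, TTCAAA at 227, and GGGCGG on either strand at 135 and 43 bases. At least 2 copies of CCAAT were found in 10.8% of all promoters. The promoter of its other start held GGGCGG alone.

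The ratio of the type II isoforms within a library does not depend on how libraries were scaled to each other. It was chosen after the values above were seen and is given as a description. Per kilobase, TOP2A was at 1.72, 1.99, 1.84 and 1.81 times the level of TOP2B in the untreated Scr libraries (Scr13, then Scr16) and at 1.67, 1.65, 1.74 and 1.67 times in the untreated KO-labelled libraries (KO11, then KO28). After doxorubicin the ratio was 2.34, 2.21, 2.19 and 2.58 in Scr and 1.62, 1.86, 1.81 and 1.78 in the KO-labelled libraries. All 4 treated Scr libraries were above all other 12 libraries. The treated KO-labelled libraries overlapped both untreated groups. The mean ratio was 1.84 ± 0.115 in Scr untreated, 2.33 ± 0.178 in Scr doxorubicin, 1.68 ± 0.0418 in KO untreated and 1.77 ± 0.104 in KO doxorubicin (SD, n = 4).

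**Figure D2:**
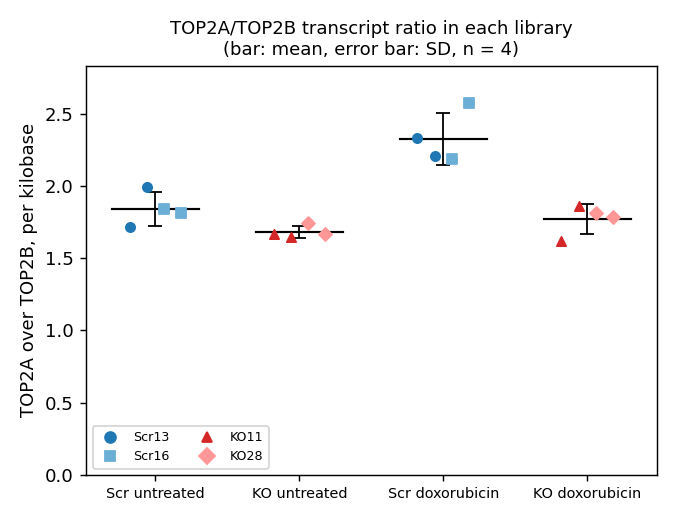
Ratio of TOP2A to TOP2B per kilobase in each of the 16 libraries, with the mean (bar) and SD (error bar, n = 4) of each group and the clone given by the symbol. The treated Scr libraries, from 2.19 to 2.58, stand above the other groups, whose highest library is at 1.99.

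TOP1 (ENSG00000198900; chromosome 20, 41028818 to 41124487, plus strand, with PLCG1-AS1 on the opposite strand) relaxes DNA ahead of polymerases and was lower after doxorubicin in both genotypes. In Scr it had 151 and 157 CPM in Scr13 and 176 and 155 in Scr16 without treatment, and 108 and 127 in Scr13 and 122 and 148 in Scr16 after doxorubicin. These groups did not overlap. The means fell from 159.9 ± 11.3 to 126 ± 16.8 CPM (SD, n = 4), or by a log2 change of -0.34 (standard error 0.083, limma adjusted p = 0.00514; exact permutation p = 0.0286). In the KO-labelled libraries, it had 185 and 189.6 CPM in KO11 and 173 and 135 in KO28 without treatment, and 135 and 140.4 in KO11 and 129 and 123 in KO28 after doxorubicin. Here replicate 2 of untreated KO28 lay among the treated libraries, and an exact permutation test, which ignores the clone, had p = 0.0857. Within KO11 and within KO28, both treated libraries lay below both untreated ones. The fitted log2 fold change was -0.36 (standard error 0.083, limma adjusted p = 0.00243). The call in Scr was lost without Scr13 (-0.30, limma adjusted p = 0.176) and not without Scr16, and that in KO-labelled libraries was lost without KO11 (-0.28, limma adjusted p = 0.202) and not without KO28. The genotypes did not differ past the threshold in either treatment, with log2 differences of 0.084 (95% interval -0.11 to 0.28) and 0.069 (95% interval -0.12 to 0.25). The difference between the responses was -0.015 (95% interval -0.26 to 0.23).
The promoter of TOP1 is shown because TOP1 was the member called lower with doxorubicin in both genotypes.
TOP1, chr20:41028572-41028871, plus strand: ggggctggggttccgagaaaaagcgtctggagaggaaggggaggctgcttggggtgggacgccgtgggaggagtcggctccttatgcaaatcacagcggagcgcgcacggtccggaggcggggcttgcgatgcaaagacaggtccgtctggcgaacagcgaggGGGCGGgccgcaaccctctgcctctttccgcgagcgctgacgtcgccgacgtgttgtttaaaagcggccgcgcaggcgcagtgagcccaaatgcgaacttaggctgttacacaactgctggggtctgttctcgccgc
Of the motifs searched, it held GGGCGG, at 87 bases before the start.

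TDP1 (ENSG00000042088; chromosome 14, 89954939 to 90044768, plus strand), which releases trapped TOP1, was lower after doxorubicin in the KO-labelled libraries. Untreated, it had 40.0 and 40.8 CPM in KO11 and 44.3 and 43.5 in KO28. After doxorubicin it had 30.2 and 34.5 CPM in KO11 and 27.7 and 32.3 in KO28. All treated KO-labelled libraries lay below all untreated ones, and the fall from 42.1 ± 2.06 to 31.2 ± 2.91 CPM (SD, n = 4) was a log2 change of -0.43 (standard error 0.10, limma adjusted p = 0.00307; exact permutation p = 0.0286). Without clone KO28 the change was -0.32 and not past the threshold (limma adjusted p = 0.164). In Scr13 it had 36.2 and 39.0 CPM untreated and 39.4 and 35.4 treated, and in Scr16 37.7 and 35.2 untreated and 34.98 and 37.3 treated. The Scr means were 37.0 ± 1.70 and 36.8 ± 2.01 CPM (SD, n = 4), a log2 change of -0.010 (95% interval -0.22 to 0.20). The difference between the responses was -0.42 (standard error 0.14) with an unadjusted p of 0.00701 and an adjusted p of 0.413 from limma, which did not pass.
The genotypes did not overlap for TDP1 in either treatment, with opposite order. The 4 KO-labelled libraries were above the Scr libraries without treatment (log2 difference 0.18, standard error 0.097, limma adjusted p = 0.424) and below them after doxorubicin (-0.23, standard error 0.11, limma adjusted p = 0.243). Neither difference passed the threshold over all genes, while the exact permutation test of the single gene gave its smallest p, 0.0286, in both.
The promoter of TDP1 is shown for comparison with that of TOP2A, since it shares a motif with it.
TDP1, chr14:89955677-89955976, plus strand: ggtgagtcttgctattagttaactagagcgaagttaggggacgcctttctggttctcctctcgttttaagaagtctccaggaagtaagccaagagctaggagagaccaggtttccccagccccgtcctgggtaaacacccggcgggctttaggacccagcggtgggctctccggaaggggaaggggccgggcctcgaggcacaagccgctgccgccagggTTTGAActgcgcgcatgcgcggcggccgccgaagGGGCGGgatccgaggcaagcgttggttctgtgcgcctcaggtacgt
It held TTTGAA at 30 bases before the start and GGGCGG just after the start.

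TDP2 (ENSG00000111802; chromosome 6, 24649977 to 24667033, minus strand), the enzyme that frees trapped TOP2, had no call in any comparison. In Scr it had 33.8, 33.8, 34.9 and 31.6 CPM untreated and 25.7, 29.02, 30.1 and 27.7 after doxorubicin (Scr13, then Scr16). These groups did not overlap, with means of 33.5 ± 1.399 and 28.1 ± 1.90 CPM (SD, n = 4) and a log2 change of -0.25 (95% interval -0.46 to -0.029, limma adjusted p = 0.135). KO-labelled libraries had 39.3, 37.5, 32.3 and 33.9 CPM untreated and 28.9, 35.3, 30.4 and 31.2 after doxorubicin (KO11, then KO28), and these overlapped. The log2 change was -0.18 (95% interval -0.40 to 0.039, limma adjusted p = 0.274).

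TOP3A (ENSG00000177302; chromosome 17, 18271428 to 18315007, minus strand) works with the helicase BLM to take apart joined DNA molecules. It varied least of the members, by 1.24 times between its lowest and highest library. Its Scr libraries ran from 104 to 115 CPM untreated and from 98.0 to 120.1 after doxorubicin. The KO-labelled libraries ran from 106 to 120.0 CPM untreated and from 97.0 to 104 after doxorubicin and did not overlap, with a log2 change of -0.16 (95% interval -0.32 to -0.0044, limma adjusted p = 0.154).

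TOP3B (ENSG00000100038; chromosome 22, 21957025 to 21982816, minus strand) is a topoisomerase that also acts on RNA, with its partners TDRD3 and FMR1. It lay between 26.3 and 35.9 CPM over the 16 libraries, and the groups overlapped in each of the 4 comparisons of genotype or treatment. Its log2 differences there ran from -0.079 to 0.088. The annotation holds a pseudogene, TOP3BP1, so its reads may be split.

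TOP1MT (ENSG00000184428; chromosome 8, 143304384 to 143359979, minus strand) relaxes mitochondrial DNA. It lay between 21.7 and 34.9 CPM, and its groups also overlapped in each of these comparisons. In treated Scr its libraries spread most, at 30.1 and 22.3 CPM in Scr13 and 34.9 and 21.7 in Scr16, an SD of 6.36 CPM around 27.2 CPM (n = 4). These spanned the untreated Scr libraries, and the log2 change with doxorubicin in Scr was 0.094 (95% interval -0.19 to 0.38).

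**Figure D3:**
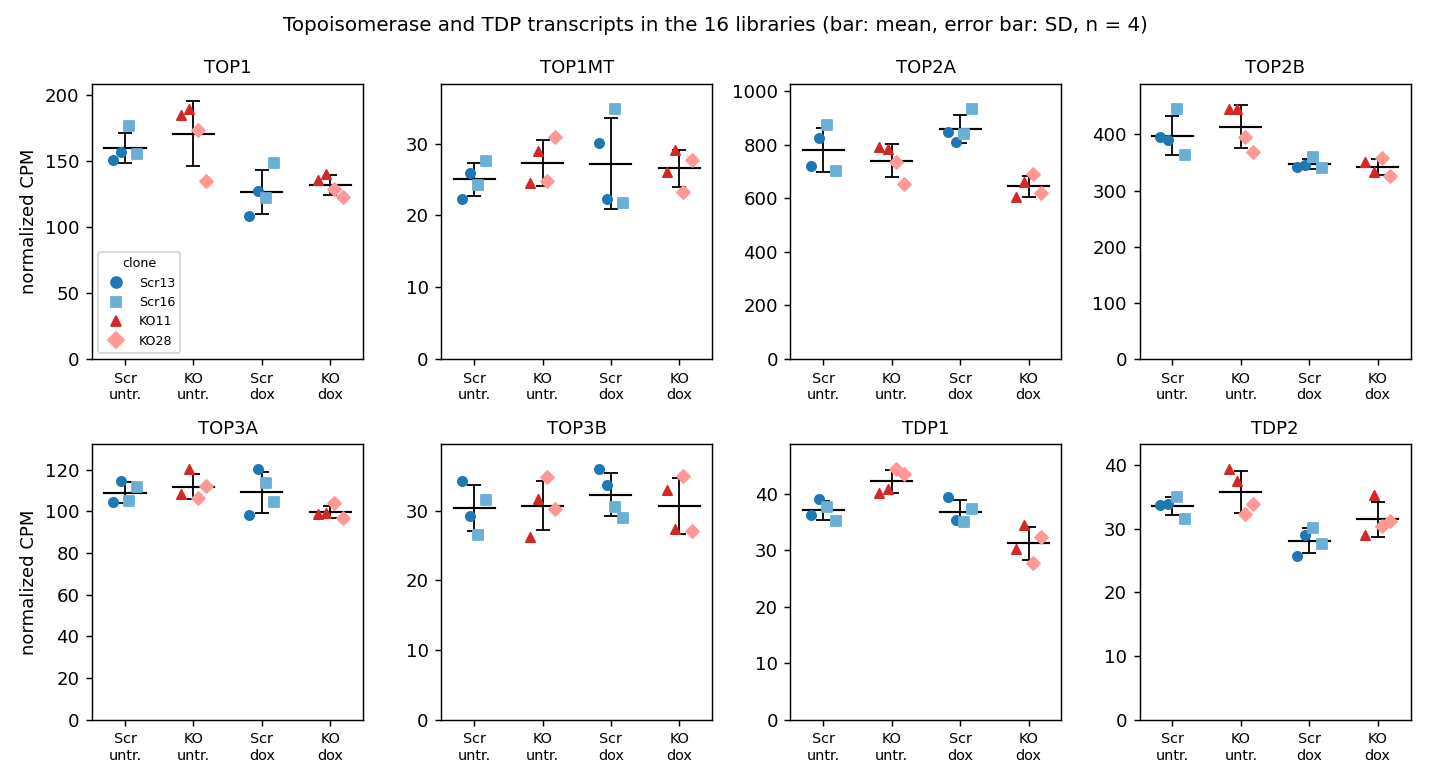
Normalized CPM of the 8 members in each of the 16 libraries (axis from 0), with the mean (bar) and SD (error bar, n = 4) of each group and the clone given by the symbol. TOP2A in KO doxorubicin, from 605 to 691, lies below the other treated group, and the means of TOP1 and TOP2B are lower in the treated groups. The change of TOP2B in Scr did not pass the threshold, and the TOP1 groups of the KO-labelled libraries overlap.

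Set side by side, each call of a member was a lower level. All 8 passed the filter on low values in each comparison. Without treatment, 0 of the 8 were called between genotypes by limma (0 also at an unadjusted p under 0.05, 0 with edgeR and with DESeq2), where 4.84% of all 14364 genes tested were called, 2.3% higher and 2.54% lower. After doxorubicin, 1 of 8 was called, lower, where 8.69% of 14572 genes were called, 4.52% higher and 4.17% lower. With doxorubicin, 1 of 8 was called in Scr, lower, where 12.6% of 15325 genes were called, 7.09% higher and 5.53% lower. In the KO-labelled libraries, 3 of 8 were called, each lower, where 17.8% of genes were called, 10.2% higher and 7.6% lower. The members' median log2 change was 0.069, -0.049, -0.0055 and -0.19 in these comparisons, beside -0.0073, 0.014, -0.012 and 0.019 over all genes. Groups that did not overlap were found for 1 member without treatment (9.29% of all genes), 2 after doxorubicin (13.2%), 3 with doxorubicin in Scr (16.4%) and 3 in the KO-labelled libraries (19.1%). The comparisons of genotype and of treatment share libraries, so these counts are not independent of each other.

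For the difference between the responses, 0 of 8 members and 0.0261% of 15325 genes were called by limma. At an unadjusted p under 0.05, limma had 2 of the 8 (TOP2A and TDP1) and 1274 of all genes, and edgeR and DESeq2 called 0 members. Between clones of 1 label, 0 of 8 were called by limma, edgeR or DESeq2, where 0.0848% of genes were called between KO28 and KO11 and 0.0131% between Scr16 and Scr13. At an unadjusted p under 0.05, TOP1 was lower in KO28 than in KO11 (log2 difference -0.21, limma adjusted p = 0.418), and 0 members differed between the Scr clones.

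**Figure D4:**
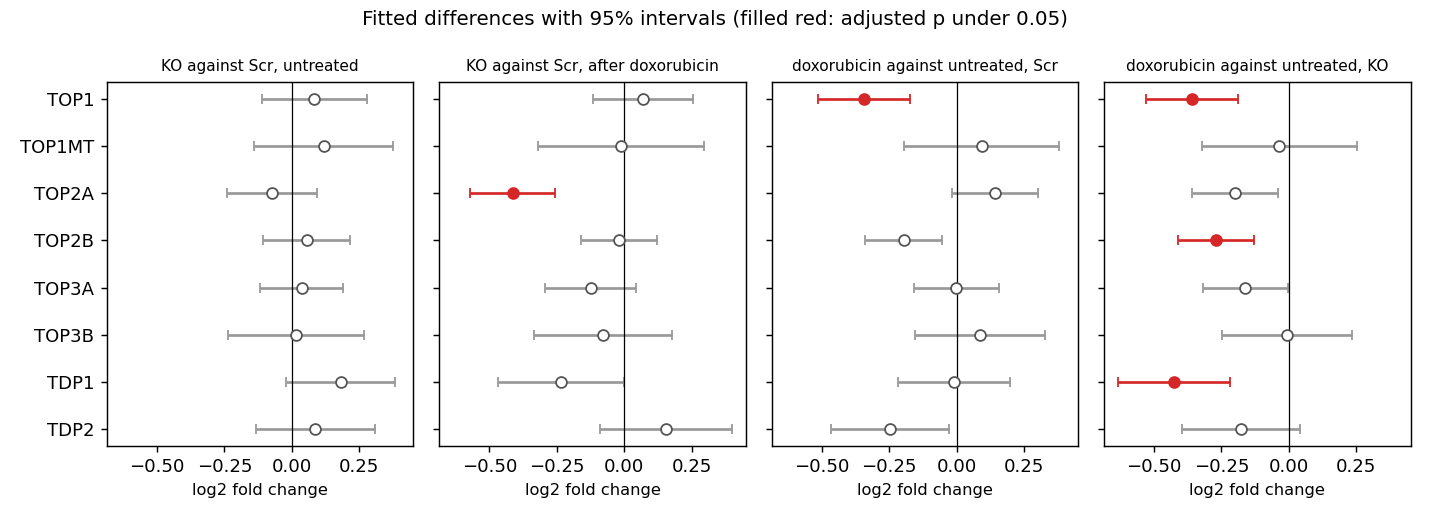
Fitted log2 fold change of each member with its 95% interval in the 4 comparisons of genotype or treatment, where filled red points have an adjusted p under 0.05. The 5 filled points, TOP2A between genotypes after doxorubicin, TOP1 in Scr, and TOP1, TOP2B and TDP1 in the KO-labelled libraries, all lie below 0.

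Genes that work with the topoisomerases were taken as lists. Their counts stand beside the shares of all genes called between genotypes, 4.84% without treatment and 8.69% after doxorubicin. With doxorubicin these shares were 12.6% in Scr and 17.8% in the KO-labelled libraries. Where a list below had 0 calls between genotypes without treatment, edgeR and DESeq2 also gave 0. At an unadjusted p under 0.05 limma then had 1 of the 5 topoisomerase III partners, 1 of the 4 RecQ helicases, 2 of 28 crosslink repair genes, 0 of 8 condensin and 0 of 6 cohesin genes, and 2 of 24 G2/M genes.

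The condensin subunits, which compact mitotic chromosomes together with TOP2A, had 0 of 8 called between genotypes without treatment. After doxorubicin 3 of 8 were lower in the KO-labelled libraries and 0 higher. NCAPD2 was at 293 ± 14.5 against 388 ± 28.5 CPM (SD, n = 4; log2 fold change -0.40, limma adjusted p = 0.000816). SMC4, an ATPase subunit, was at 387 ± 21.5 against 470.0 ± 24.4 CPM (-0.28, limma adjusted p = 0.0136), and NCAPG at 127 ± 3.84 against 153 ± 9.56 CPM (-0.27, limma adjusted p = 0.0235). The median of the 8 was -0.24 (0.014 over all genes). Without each of the clones in turn, 1 or 2 of the 8 were called, and NCAPD2 was called in all 22 alternatives. With 1 library left out the number ran from 1 (without the first treated library of KO11 or the second of KO28) to 5 (without the first treated library of Scr16), and it was also 5 with DESeq2. NCAPG was lost in 10 of 22 alternatives, 6 of them with 1 library left out, and SMC4 in 6 of 22. With doxorubicin, SMC2 and NCAPD3 fell and NCAPD2 rose in Scr (log2 changes -0.35, -0.22 and 0.24; limma adjusted p = 0.00120, 0.0447 and 0.0175), and SMC2, NCAPD3, SMC4 and NCAPH fell in the KO-labelled libraries (-0.46, -0.34, -0.30 and -0.33; limma adjusted p = 2.48e-05, 0.00101, 0.00405 and 0.00755). The medians were -0.15 and -0.29. Without Scr13 or Scr16 the Scr counts were 0 or 1 lower and 0 higher, NCAPD3 and NCAPD2 were each lost there in 4 of the 8 alternatives with 1 library left out, and without KO11 or KO28 the count was 1 or 3.

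Cohesin and CTCF, which shape the chromatin loops where TOP2B is often found, had 0 of 6 called between genotypes in either treatment by limma (after doxorubicin 2 at an unadjusted p under 0.05, 0 with edgeR and 1 with DESeq2). With doxorubicin, SMC1A, CTCF and STAG1 fell in Scr (log2 changes -0.33, -0.35 and -0.30; limma adjusted p = 0.00172, 0.00371 and 0.0202). In the KO-labelled libraries, SMC1A, SMC3, STAG2, CTCF and STAG1 fell (-0.34, -0.26, -0.22, -0.23 and -0.24; limma adjusted p = 0.000733, 0.0102, 0.0358, 0.0447 and 0.0468). The median was -0.23 in Scr and -0.24 in the KO-labelled libraries, beside -0.012 and 0.019 over all genes. Without Scr13 or Scr16, 1 or 0 of the 6 were called in Scr, and without KO11 or KO28, 0 or 4 in KO-labelled libraries. With 1 library left out, the number in KO-labelled libraries ran from 1 to 6 and was lowest, at 1, without the second untreated or the first treated library of KO11. CTCF was called in 8, STAG1 in 10 and STAG2 in 11 of 19 alternatives, and CTCF and STAG1 were also lost with TMM factors recomputed or no clone term. In Scr, STAG1 was called in 12 of 19.

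Of the 5 topoisomerase III partners, 0 were called between genotypes without treatment and 1 after doxorubicin, RMI1, the scaffold of the BLM complex, at 30.3 ± 2.54 against 40.6 ± 5.63 CPM (SD, n = 4; log2 fold change -0.40, limma adjusted p = 0.0345). RMI1 was lost as a call in 11 of 22 alternatives. These include each of the 4 clones left out, no filter and values averaged per clone. With 1 library left out, RMI1 was called in 3 of 8 fits. With doxorubicin 0 of 5 were called in Scr by limma (2 at an unadjusted p under 0.05, 0 with edgeR and 1 with DESeq2), and RMI1 and BLM fell in the KO-labelled libraries (-0.56 and -0.33; limma adjusted p = 0.000225 and 0.00909). The RMI1 fall was called in all 19 alternatives, but the BLM call was lost without KO11 (-0.27, limma adjusted p = 0.275) and also without KO28 (-0.39). The TOP3B partners TDRD3 and FMR1 were not called in any comparison. Among 4 other RecQ helicases 0 were called between genotypes in either treatment by limma (after doxorubicin 1 at an unadjusted p under 0.05, 0 with edgeR and with DESeq2). With doxorubicin, RECQL fell in Scr (-0.31, limma adjusted p = 0.0499) and RECQL4 in the KO-labelled libraries (-0.29, limma adjusted p = 0.0337). RECQL was lost in 14 of 19 alternatives, edgeR among them, and was called in 1 of the 8 with 1 library left out. RECQL4 was lost in 7 of 19. Its change ran from -0.36 to -0.18 with 1 library left out and from -0.46 to -0.12 without 1 clone.

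A list of 30 genes that process topoisomerase-DNA crosslinks covers proteases, nucleases, ligases and end joining factors, of which 28 passed the filter in the genotype comparisons and 29 in the others. Without treatment 0 were called between genotypes. After doxorubicin LIG4, the ligase of end joining, was higher in the KO-labelled libraries at 25.6 ± 1.03 against 16.7 ± 4.02 CPM (SD, n = 4; log2 fold change 0.61, limma adjusted p = 0.0148). PARP1, a sensor of strand breaks, was lower at 464 ± 31.3 against 555 ± 45.9 CPM (-0.26, limma adjusted p = 0.0391). LIG4 was lost in 6 of 22 alternatives. These were without KO11, KO28 or Scr16, with no filter, with values averaged per clone, and without the second treated library of KO11. PARP1 was lost in 10 of 22, among them no filter and each of the 4 clones left out. With 1 library left out, PARP1 was called in 3 of 8 fits. With doxorubicin, 7 of 29 fell and 0 rose in Scr (5.53% and 7.09% of all genes). In the KO-labelled libraries 9 fell and 1 rose (7.6% and 10.2% of all genes). In Scr the 4 with the smallest adjusted p were NBN of the MRE11 complex, PARP1, XRCC6 of the Ku dimer and the kinase PRKDC (-0.69, -0.33, -0.35 and -0.31; limma adjusted p = 0.000744, 0.00173, 0.00207 and 0.00771). In the KO-labelled libraries they were PARP1, XRCC6, NBN and the endonuclease APEX1 (-0.52, -0.44, -0.62 and -0.31; limma adjusted p = 2.70e-06, 8.43e-05, 0.00143 and 0.00147). The medians were -0.080 in both. Without 1 clone of the genotype, the falls numbered 1 or 2 in Scr and 3 or 6 in KO-labelled libraries, where LIG4, the 1 that rose, was lost. Leaving out either untreated library or the first treated library of KO11 brought the falls in KO-labelled libraries to 5.

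The 12 mitochondrial DNA maintenance genes are the setting of TOP1MT. Between genotypes without treatment 1 was called, where 4.84% of all genes were. With doxorubicin 1 was called in Scr, where 12.6% of all genes were. TFB1M, a mitochondrial rRNA methyltransferase, was lower in the untreated KO-labelled libraries (12.3 ± 1.14 against 18.3 ± 1.70 CPM, SD, n = 4; log2 fold change -0.54, limma adjusted p = 0.0349), and 0 of 12 were called between genotypes after doxorubicin by limma (3 at an unadjusted p under 0.05, 0 with edgeR and 1 with DESeq2). With doxorubicin SSBP1, the mitochondrial single-strand binding protein, fell in Scr (-0.72, limma adjusted p = 0.0337). Its level went from 18.7 ± 9.05 to 10.0 ± 1.18 CPM (SD, n = 4), so the untreated Scr libraries were widely spread. In the KO-labelled libraries 0 were called by limma (1 at an unadjusted p under 0.05, 0 with edgeR and with DESeq2). TFB1M was lost in 12 of 22 alternatives and SSBP1 in 7 of 19.

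TOP2A is used most in the G2 and M phases. Of 24 G2/M genes, 0 were called without treatment (at most 1 over the 22 alternatives), and 20 were lower and 0 higher in the KO-labelled libraries after doxorubicin, with a median log2 difference of -0.41 (0.014 over all genes). The 4 with the smallest adjusted p were the spindle protein NUSAP1, the ubiquitin-conjugating enzyme UBE2C, the kinetochore protein CENPF and the kinase PLK1 (-0.47, -0.59, -0.50 and -0.69; limma adjusted p = 0.000135, 0.000153, 0.000186 and 0.000480). Without each of the clones in turn, between 10 and 19 were called lower. With doxorubicin, BIRC5 alone fell in Scr (-0.32, limma adjusted p = 0.00787), a call lost without Scr13, and the number called in Scr ran from 0 to 3 over the alternatives. In the KO-labelled libraries 21 of 24 fell, led by BIRC5, CDC20, KIF20A and CCNB1 (-0.69, -0.85, -0.70 and -0.77; limma adjusted p = 2.52e-07, 6.41e-07, 1.61e-06 and 1.80e-06). The list medians were -0.042 and -0.39. The number was 8 without KO11 and 15 without KO28. For the difference between the responses, 1 of 24 was called, PLK1 (-0.73, limma adjusted p = 0.0294). This call was lost in 14 of 29 alternatives, among them no filter, no clone term, 9 of the 16 that left out 1 library, and those without KO11, KO28 or Scr16. The number of genes called ran from 0 to 3 with 1 library left out and was 10 with DESeq2. In such bulk RNA, fewer cells in a stage and less RNA per cell cannot be told apart.

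Of 22 G1/S genes, which include the MCM helicase subunits, 1 was lower in the untreated KO-labelled libraries (MCM2, log2 fold change -0.75, limma adjusted p = 7.18e-07). After doxorubicin 5 were lower and 0 higher, led by MCM2, MCM6, MCM3 and CDT1 (-0.93, -0.51, -0.38 and -0.43; limma adjusted p = 1.43e-07, 0.000203, 0.00710 and 0.0187). With doxorubicin 16 fell and 1 rose in Scr, with MCM6, MCM5, RRM2 and MCM4 in front (-0.71, -0.77, -0.63 and -0.54; limma adjusted p = 4.81e-08, 3.78e-06, 5.88e-06 and 9.83e-06), and 16 fell and 0 rose in the KO-labelled libraries, with MCM6, MCM5, MCM2 and MCM4 in front (-1.02, -0.93, -0.65 and -0.61; limma adjusted p = 1.65e-11, 7.47e-08, 4.79e-07 and 8.20e-07). The medians were -0.46 in Scr and -0.42 in the KO-labelled libraries. Without KO11, 2 genes were called lower between genotypes after doxorubicin. With 1 library left out the number ran from 3 (without the first treated library of KO11 or KO28 or the second of Scr13) to 8 (without the first treated library of Scr16). CDT1 was lost in 8 of 22 alternatives, with log2 fold changes from -0.65 to -0.20 over all of them. The falls numbered 13 without Scr13 and 8 without Scr16 in Scr, and 11 without KO11 and 14 without KO28 in KO-labelled libraries.

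The p53 targets, genes switched on by the transcription factor of the DNA damage response, rose with the drug. With doxorubicin 21 of 22 rose in Scr and all 22 in the KO-labelled libraries, with medians of 1.38 and 1.48. CDKN1A, which stops the cell cycle, went from 57.0 ± 15.2 to 337 ± 25.1 CPM in Scr and from 136 ± 16.5 to 736 ± 45.3 CPM in the KO-labelled libraries (SD, n = 4; log2 fold changes 2.58 and 2.43; limma adjusted p = 4.52e-16 and 1.14e-15). GDF15, TNFRSF10B and ZMAT3 were among those with the smallest adjusted p in both (4.36, 1.37 and 1.38 in Scr, and 4.53, 1.501 and 1.46 in KO-labelled libraries). Between genotypes, 10 of 21 tested were higher in the KO-labelled libraries without treatment, led by CDKN1A, ZMAT3, PHLDA3 and BTG2 (1.27, 0.52, 0.77 and 0.71; limma adjusted p = 3.36e-06, 0.00159, 0.00173 and 0.00328). After doxorubicin 17 of 22 were, led by CDKN1A, TP53I3, TP53INP1 and BTG2 (1.13, 1.67, 0.73 and 0.80; limma adjusted p = 1.98e-09, 2.63e-07, 7.61e-07 and 8.05e-07). Without 1 clone these counts ran from 3 (without Scr16) to 8 and from 13 to 22, and without the first untreated library of Scr16 the first was 5. For the difference between the responses TP53I3 was called (1.66, limma adjusted p = 0.000716), lost without KO11 and with no filter, and over the alternatives 0 to 4 were called.

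**Figure D5:**
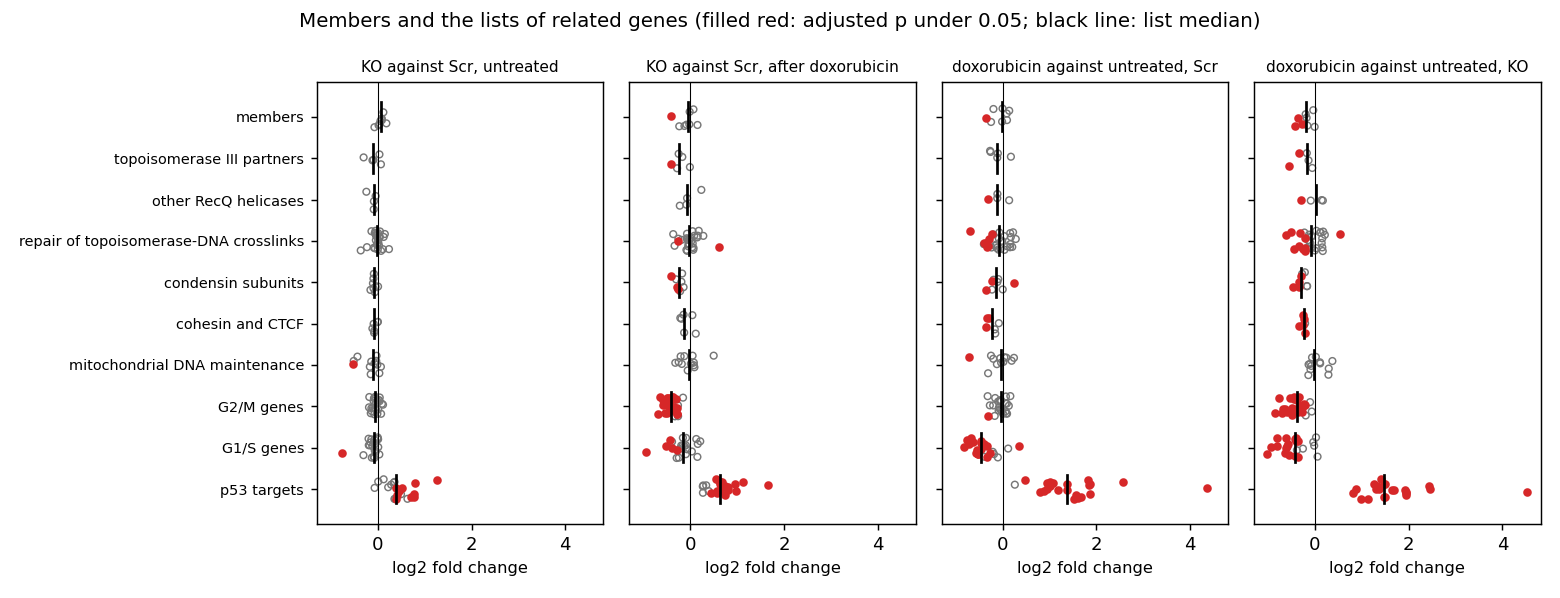
Log2 fold change of each gene of the members and of the lists of related genes in the 4 comparisons, where filled red points have an adjusted p under 0.05 and the black line is the list's median. The G2/M genes lie left of 0 between genotypes after doxorubicin and with doxorubicin in the KO-labelled libraries, and the p53 targets lie right of 0 with doxorubicin.

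The 3 genes most like each member over the 16 libraries, by Pearson correlation of log2(CPM + 1) among the other 11486 genes with a mean of at least 5 CPM, are a description, since the libraries share clones, treatments and scaling. For TOP2A they were the mitotic genes CKAP2L (r = 0.960) and HMMR (r = 0.919) and the centrosomal gene CEP41 (r = 0.910). Among those most like TOP2B were the neuronal gene MAP2 (r = 0.932) and the chromatin remodeller SMARCA5 (r = 0.925). TOP1 was most like DDX1 (r = 0.926), EIF4G2 (r = 0.924) and PAPOLA (r = 0.922). For TDP2 they were TXNRD1 (r = 0.939), ECHDC1 (r = 0.913) and TRMT10C (r = 0.892), and for TDP1 KLHDC3 (r = 0.883), GLA (r = 0.875) and C20orf27 (r = 0.857). The others had lower values, with KDM2B (r = 0.851), IRS1 (r = 0.850) and LETM2 (r = 0.847) for TOP3A, LINC00630 (r = 0.840), ZCCHC4 (r = 0.815) and ZNF555 (r = 0.791) for TOP3B, and HIGD2A (r = 0.790), MRPL43 (r = 0.772) and MAN1C1 (r = 0.758) for TOP1MT.

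The promoters of the remaining members in the RefSeq table, TOP3A, TOP3B and TDP2, held GGGCGG in 3, 1 and 4 places and none of the other motifs. TTCGAA, TTTCGCGC and TTTGGCGC were in none of the 8 promoters of the 7 members. CCAAT was in those of TOP2A and TOP2B, and TTTGAA in those of TOP2A, TOP2B and TDP1. TOP1MT has no entry in the table.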

How the data were processed

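Per the labels, poly(A) RNA was sequenced with a directional kit. The submitters' processing notes name bcl2fastq, HISAT2 2.1.0, HTSeq, edgeR and GRCh38, and whether reads were counted by strand is not given in the sources used here. The deposited signal of each library is normalized CPM as the authors' edgeR run gave it, and whole reads were recovered for 100% of values (tolerance 0.001, largest deviation 8.19e-05). Factors lay between 0.974 and 1.03, and both tables share 1 normalization. The tables also hold the authors' own comparison, with log2 fold changes, p-values and q-values, which were not used. Of the value columns, 0 could not be assigned to a library.

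Genes with at least 1 CPM in at least 4 libraries of a fit were tested with limma 3.58.1 (R 4.3.3) on log2(CPM + 1), with an abundance trend and Benjamini-Hochberg adjustment at 0.05, and fold changes are on that scale, which understates those of low genes. Genotypes were compared over the 8 libraries of a treatment. Treatments, responses and clones were compared in 1 fit of the 16 libraries with the clone as a fixed term. Single genes also had a two-sided exact permutation test. The alternatives were edgeR 4.0.16 and DESeq2 1.42.0 on recovered reads, other filters, scalings, pseudocounts and blocks, and each library or clone left out. Scripts were tested on simulated data. Names, positions and exon lengths came from GENCODE 29. Of 172 list genes 3 were not matched. A gene that the rule for named genes selected is not reported here.

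The members, lists, motifs and tests were chosen with earlier results of these data known. The numbers of CCAAT copies compared with other promoters were chosen after the matches were seen. The genes named are the members, TRPM2, the 3 most like each member, and per list and comparison up to 4 called genes with the smallest adjusted p, or all called genes in lists of at most 12.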

Additional observations from a re-analysis of the deposited data

How the results depend on the processing

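Across 888 pairs of a member's log2 change and an alternative setting, 829 kept their direction and their side of the threshold, 4 were no longer past it, 7 came past it and 48 changed sign, in 18 of 40 member changes, the largest of which was 0.13 in size. The 4 lost calls were TOP1 without Scr13 in Scr, TOP1 and TOP2B without KO11 and TDP1 without KO28. All 4 were lost by leaving out a clone, which also leaves fewer libraries. Among the members, TOP1MT, TOP3B, TDP1 and TDP2 had the fewest reads, with as few as 317 in a library. The cause of each change below was not tested.

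Genes called without treatment numbered 368 with no filter, 330 without Scr13 and 327 without Scr16 (695 in the main setting). After doxorubicin they numbered 510 without KO11 and 575 without KO28 (1266), and from 814 to 1314 with 1 library left out. With doxorubicin they numbered 569 without Scr13 and 908 without Scr16 in Scr (1935), and 934 without KO11 and 1413 without KO28 in KO-labelled libraries (2727). Members called in Scr were 2 with the library size alone, 2 with DESeq2, 0 without Scr13 and 1 to 2 with 1 library left out (1), and in KO-labelled libraries 1 without KO11 (3). For the difference between the responses (4 genes), the count was 2 with no filter, 10 with edgeR, 58 with DESeq2, 0 without KO11, 10 without Scr13, 1 without Scr16, 1 without KO28 and 1 to 19 with 1 library left out. Between KO28 and KO11 (13) it was 7 with a pseudocount of 0.25, 0 with no filter, 7 with edgeR, 38 with DESeq2 and 2 to 43 with 1 library left out. Between Scr16 and Scr13 (2) it was 0 with no filter, 1 with at least 10 reads in every library, 1 with edgeR, 4 with DESeq2 and 1 to 83 with 1 library left out.

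Signs changed for small differences. Without treatment, leaving out KO11 gave -0.062 for TOP1, -0.055 for TOP2B and -0.018 for TDP2, leaving out Scr16 gave -0.047 for TOP3B, and leaving out KO28 gave 0.019 for TOP2A and -0.067 for TOP3B. After doxorubicin, leaving out Scr13 gave -0.028 for TOP1 and 0.030 for TOP3B, and TOP1MT was 0.032 without Scr16 and 0.043 without KO28. For TOP3A, doxorubicin against untreated, Scr, the value was 0.0019 with edgeR, 0.0059 with DESeq2 and 0.011 without Scr13. In KO-labelled libraries without KO28, TOP1MT was 0.048 and TOP3B 0.059. The difference between the responses was 0.065 for TOP1 and 0.035 for TOP2B without KO11, 0.029 for TOP1 without Scr16 and -0.011 for TDP2 without KO28. With 1 library left out, the values ran from -0.046 to 0.086 for TOP3B without treatment, and after doxorubicin from -0.0023 to 0.15 for TOP1, -0.11 to 0.11 for TOP1MT and -0.041 to 0.0019 for TOP2B. With doxorubicin in Scr they ran from -0.056 to 0.060 for TOP3A, -0.041 to 0.019 for TDP1 and -0.037 to 0.23 for TOP1MT, and in KO-labelled libraries from -0.072 to 0.079 for TOP3B and -0.10 to 0.043 for TOP1MT. For the difference between the responses they ran from -0.10 to 0.051 for TOP1 and -0.26 to 0.00045 for TOP1MT.

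The labels do not say what libraries of the same replicate number share. Over genes, the deviations of same-numbered libraries of a clone, untreated and treated, correlated at -0.025 in KO11, 0.086 in Scr13, 0.030 in Scr16 and 0.029 in KO28. These correlations were taken within clones and over all genes, so they cannot show whether single genes differ by replicate number. COL3A1, for example, was higher in replicate 1 than in replicate 2 of every clone and treatment. With a replicate block, 22 genes were called for the difference between the responses in place of 4.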
